A study of Mus musculus with 5 samples.

Results

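The miR-379/410 cluster is a run of microRNA (miRNA) hairpins in the imprinted Dlk1-Dio3 region of mouse chromosome 12. Its members were taken by name: every array probe that carries the name of one of 35 cluster hairpins, alone or with a suffix for the 5p or 3p arm, was a member, and probes for star arms were not. This gave 41 of the 569 miRNA probes on the array, with 6 spots each. All 41 lay in the set of 568 miRNAs that were tested.

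MiRNAs are short RNAs that pair with messenger RNAs, mainly through bases 2 to 8 (the seed), and lower their translation and stability. The miR-379/410 hairpins are expressed from the maternal chromosome, within a long noncoding transcript unit that includes Mirg, and are abundant in brain. In rat neurons the cluster is transcribed under Mef2 after neuronal activity, and miR-134, miR-329 and miR-381 are needed for activity-dependent growth of dendrites. MiR-134 lies near synapses in rat hippocampal neurons, where it holds back translation of the kinase Limk1 until brain-derived neurotrophic factor (BDNF) relieves the block.

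The study compared hippocampus of 129/Sv mice aged 8 weeks that carry a humanised BDNF gene (hBDNF), homozygous for valine (Val/Val) or for methionine (Met/Met) at the human Val66Met site. Both genotypes are knock-ins, and no mice without the humanised gene enter the comparison. Each of 5 two-colour arrays was hybridised with a pair of mice, Met/Met in Cy3 and Val/Val in Cy5, and the labels call the arrays biological replicates 1 to 5. Dyes were never exchanged, so dye and genotype cannot be told apart. The deposited tables name their columns Test and Cntrl without tying either to a genotype. Values are therefore log2 ratios of Test over Cntrl, which genotype a positive value favours is unknown, and a swap of the columns would invert all signs.

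All 41 target sequences had a seed of their own, but 5 pairs of members differed in only 1 seed base. Of the 41, 38 matched a mature miRNA of the RefSeq table for GRCm38.p6, all on the plus strand between chr12:109709065-109743784, a span of 34.7 kb. By the same annotation, 9 of the 35 hairpins lie inside the noncoding gene Mirg. Where the matched entry names an arm, 14 members come from the 5p arm and 23 from the 3p arm. The sequences below are those on which the values turn. They are 5′ to 3′, with the seed in capitals. The first 7 hold 4 of the 5 pairs with near-identical seeds, at the start and middle of the cluster.
miR-379 (chr12:109709065-109709085, plus strand): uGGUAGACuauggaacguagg
miR-411 (chr12:109710190-109710210, plus strand): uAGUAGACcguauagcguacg
miR-376a (chr12:109723824-109723844, plus strand): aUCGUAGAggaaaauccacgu
miR-376b (chr12:109723508-109723528, plus strand): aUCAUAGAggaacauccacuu
miR-376c: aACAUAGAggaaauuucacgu
miR-300 (chr12:109724363-109724384, plus strand): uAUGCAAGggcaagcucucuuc
miR-381 (chr12:109726870-109726891, plus strand): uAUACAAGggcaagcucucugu
The next set holds the other members best known from neurons and miR-410, which ends the cluster.
miR-134 (chr12:109734145-109734166, plus strand): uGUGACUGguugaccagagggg
miR-329 (chr12:109713541-109713562, plus strand): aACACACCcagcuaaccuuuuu
miR-485: aGAGGCUGgccgugaugaauuc
miR-495 (chr12:109718795-109718816, plus strand): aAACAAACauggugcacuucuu
miR-410 (chr12:109743764-109743784, plus strand): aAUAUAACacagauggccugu
The last set holds a hairpin whose arms had ratios of opposite sign, and the 3 members with the smallest p.
miR-369-5p (chr12:109743431-109743452, plus strand): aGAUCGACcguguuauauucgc
miR-369-3p (chr12:109743466-109743486, plus strand): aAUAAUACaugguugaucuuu
miR-544 (chr12:109729371-109729392, plus strand): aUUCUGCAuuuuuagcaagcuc
miR-412 (chr12:109743340-109743359, plus strand): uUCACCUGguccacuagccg
miR-667 (chr12:109720061-109720083, plus strand): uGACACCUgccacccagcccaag

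These likenesses bear on the probes as well as on the targets. MiR-300 and miR-381 differ by an edit distance of 3 over the whole target, as do miR-376a and miR-376b. MiR-376a and miR-376c are 4 edits apart, and so are miR-495 and miR-543. Crossed hybridisation between such pairs was not tested. One other miRNA on the array, miR-362-3p, has the seed of a member (miR-329), and its ratio was −0.021 ± 0.028 (SD, n = 5 arrays) at a signal not above the mismatch controls.

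Hippocampal RNA gave clear signal for most of the cluster. Of the 41 members, 32 (78.0%) exceeded the 95th percentile of the mismatch control spots on 3 or more arrays in one column or both, against 56% of the 568 miRNAs tested. In both columns on all 5 arrays, 30 members did so, against 43.1% of all. The other 9 members were miR-299, miR-412, miR-453, miR-544, miR-654-5p, miR-654-3p, miR-666-3p, miR-679 and miR-758, and 7 of these were above the controls in neither column on any array. For such probes a ratio compares signals at background and gives no fold between the genotypes.

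Intensities before normalization are given here for some probes with strong signal. MiR-379, the first hairpin, ranged over 7282 to 12517 intensity units in Test and 7355 to 10347 in Cntrl. MiR-382, from the middle of the cluster, ranged over 9118 to 15544 in Test and 8714 to 12177 in Cntrl. MiR-495 ranged over 5896 to 13906 in Test and 7611 to 12619 in Cntrl. For each of these probes the ranges of the columns overlapped, but such ranges leave out the pairing by array. On replicate 5, miR-495 read 5896 in Test and 10880 in Cntrl, while miR-382 read 10583 and 10528. The Cntrl column has the higher background, with medians of the empty spots of 208 to 361 units over the arrays against 31.4 to 45.7 in Test. At that level miR-544 read 34.5 to 59.0 in Test and 281 to 380 in Cntrl. Intensities of different probes were not set against each other, since each probe has its own response.

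**Figure D1:**
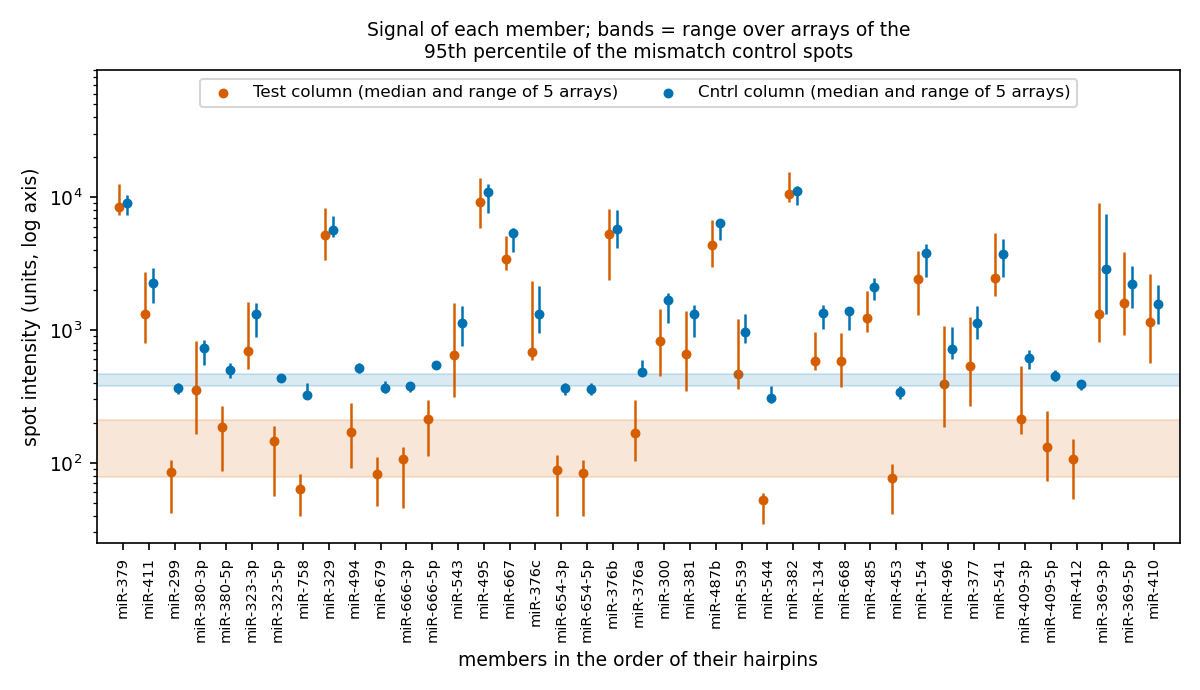
Spot intensity (log axis, arbitrary units) of the 41 members in hairpin order, with the median and the range over 5 arrays for the Test and Cntrl columns, and bands for the range of the 95th percentile of the mismatch control spots. The 9 members that did not exceed the controls, such as miR-544 and miR-453, lie within or below both bands, while miR-379, miR-382 and miR-495 lie far above them.

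No member of the cluster differed between the columns after adjustment. In the limma fit over all 568 miRNAs, with Benjamini-Hochberg adjustment, 0 of 41 members and 0 of 568 miRNAs passed an adjusted p of 0.05, and the smallest adjusted p of a member was 0.152, for miR-544. At an unadjusted p under 0.05 there were 8 members (19.5%), against 19.4% of all miRNAs tested. Of these, 5 were higher in Test, against 8.63% of all, and 3 lower, against 10.7%. At an adjusted p of 0.10 there were 0 members and 1.58% of all miRNAs. The count at an unadjusted p under 0.05 moved with single arrays and was 4, 5, 15, 3 and 13 when replicates 1 to 5 were left out in turn. The matching shares of all miRNAs were 10.2%, 12.5%, 24.6%, 11.8% and 20.4%. Of the 8, 5 were among the 32 members above the mismatch controls, where 21.4% of all 318 such miRNAs had an unadjusted p under 0.05, and 3 were near background.

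The signs of the members were mixed. The mean ratio was positive for 23 members and negative for 18, and the median over members was 0.0063, beside 0.0029 over all 568 miRNAs. Means ran from −0.25 for miR-668 to 0.23 for miR-380-3p, and 17 members lay within 0.1 of 0. For 33 of 41 members the SD between arrays exceeded the size of the mean. The 95% intervals of the limma fit reached from −0.55 at the lowest to 0.60 at the highest, so differences of that size in single members were not excluded by these 5 arrays. Only 5 members (12.2%) kept a single sign on all 5 arrays, against 19.7% of all miRNAs tested. Of these, 4 were positive, against 8.63% of all, and 1 negative, against 11.1%. Among the 32 members above the mismatch controls there was 1, against 16.4% of the 318.

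Members varied more between arrays than the array as a whole. The median SD over 5 arrays was 0.18 for the 41 members and 0.12 for all miRNAs tested. Among probes above the mismatch controls it was 0.23 for the 32 members and 0.20 for all 318. The median size of the mean ratio was 0.14 for those 32 members and 0.11 for the 318. These are descriptions with no test, since members share a transcript and are not replicates.

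**Figure D2:**
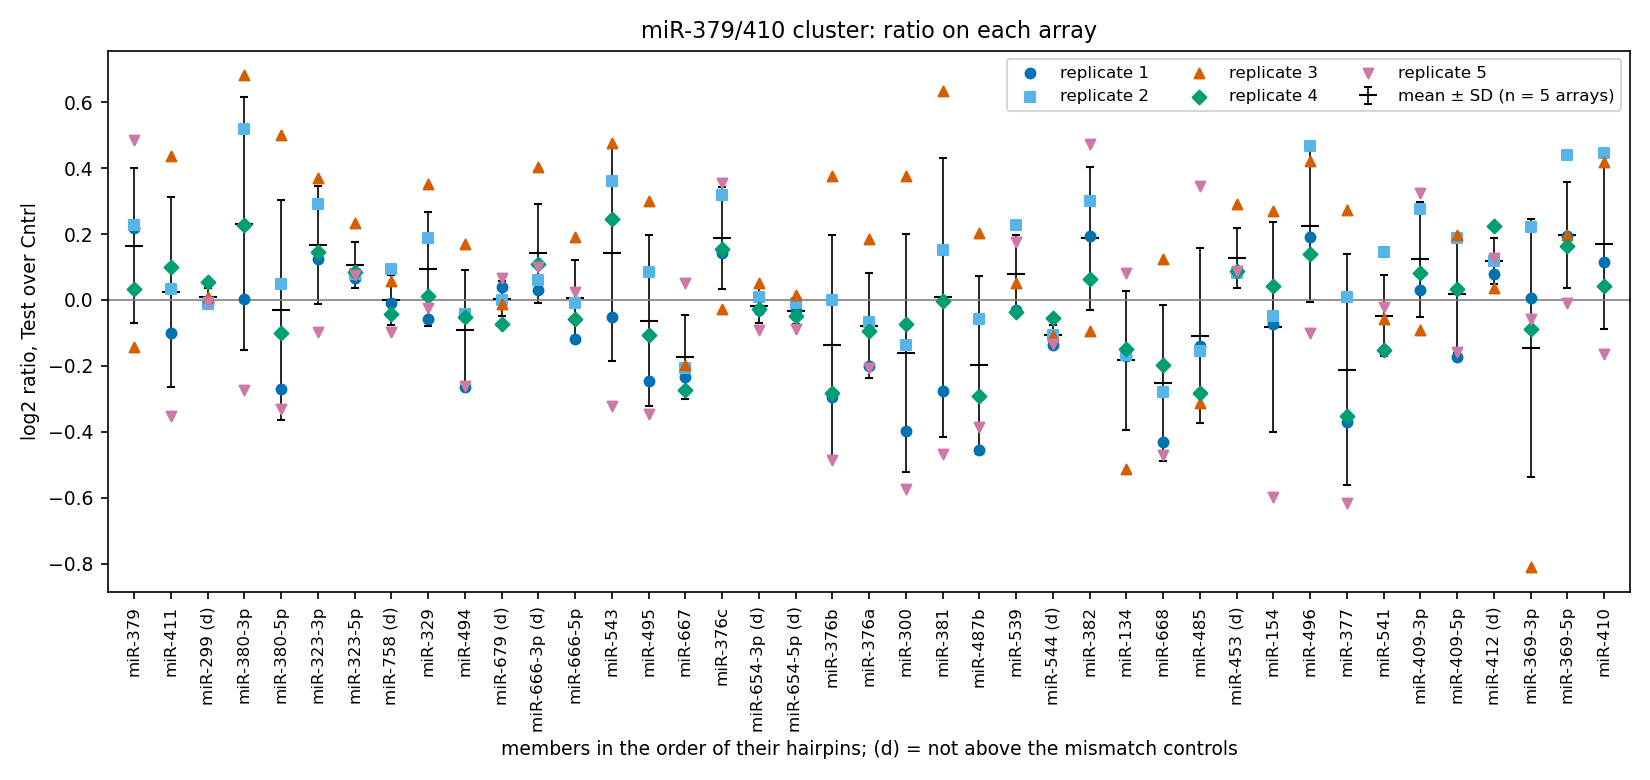
Log2 ratio of Test over Cntrl for the 41 members in hairpin order, with a point for each of 5 arrays and the mean ± SD, where (d) marks members not above the mismatch controls. Points of replicate 3 lie mostly above 0 (30 of 41 members positive, against 43.5% of all miRNAs tested). Those of replicate 5 lie mostly below (14 positive, against 47.7% of all), and the means stay between −0.25 and 0.23.

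MiR-134, the dendritic regulator of Limk1, had log2 ratios of −0.17, −0.17, −0.51, −0.15 and 0.080 on replicates 1 to 5. It was below 0 on 4 arrays, lowest on replicate 3, and above 0 on replicate 5. The mean was −0.18 ± 0.21 (SD, n = 5 arrays), with a 95% interval of −0.39 to 0.024 and a limma adjusted p of 0.293. The sign of this mean turned to positive, 0.039, when arrays were centred on their medians without loess, and to 0.022 when the sign of replicate 3, which ran against replicates 1 and 5, was turned.

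MiR-329 and miR-381 act with miR-134 in dendrite growth of rat neurons. MiR-329 gave −0.057, 0.19, 0.35, 0.012 and −0.024, with values on both sides of 0 and the highest on replicate 3. Its mean was 0.094 ± 0.17 (SD, n = 5 arrays), with an interval of −0.078 to 0.27. MiR-381 gave −0.28, 0.15, 0.63, −0.0026 and −0.47. It spread most of all members: replicate 3 was the highest array, replicate 5 the lowest, and the mean of 0.0080 ± 0.42 (SD, n = 5 arrays) lay near 0. Adjusted p was 0.459 for miR-329 and 0.995 for miR-381 in limma. MiR-300, the near-copy of miR-381 upstream of it, was likewise highest on replicate 3 and lowest on replicate 5, with −0.40, −0.14, 0.38, −0.073 and −0.57 and a mean of −0.16 ± 0.36.

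MiR-485, which lowers the synaptic vesicle protein SV2A in rat hippocampal neurons, gave −0.14, −0.16, −0.31, −0.28 and 0.35. The first 4 arrays were below 0 and replicate 5 stood above them. The mean was −0.11 ± 0.27 (SD, n = 5 arrays) with a limma adjusted p of 0.535. MiR-495 gave −0.25, 0.086, 0.30, −0.10 and −0.35, again with replicate 3 highest and replicate 5 lowest. Its mean was −0.063 ± 0.26 (SD, n = 5 arrays), and its close relative miR-543 had a mean of 0.14 ± 0.33. The arrays of both members overlapped 0 widely.

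At the ends of the cluster the arrays also lay on both sides of 0. MiR-379 gave 0.22, 0.23, −0.14, 0.032 and 0.49, with replicate 3 alone below 0 and replicate 5 highest. Its mean was 0.16 ± 0.24 (SD, n = 5 arrays), with an interval of −0.064 to 0.39 and a limma adjusted p of 0.356. MiR-410, at the far end, gave 0.12, 0.45, 0.42, 0.043 and −0.17, with replicate 5 alone below 0. Its mean was 0.17 ± 0.26 (SD, n = 5 arrays), with an interval of −0.079 to 0.42 and a limma adjusted p of 0.371. MiR-411, which differs from miR-379 in 1 seed base, had a mean of 0.024 ± 0.29. On replicates 3 and 5 miR-379 was negative and positive, while miR-411 was positive and negative.

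The miR-376 family, whose transcripts are known for A-to-I editing inside the seed, had means of both signs. MiR-376c gave 0.14, 0.32, −0.028, 0.15 and 0.35, above 0 on every array but replicate 3. Its mean was 0.19 ± 0.15 (SD, n = 5 arrays), with an interval of 0.033 to 0.34 and a limma adjusted p of 0.215. MiR-376b gave −0.29, 6.5e-04, 0.37, −0.28 and −0.49, with replicate 3 highest. MiR-376a gave −0.20, −0.068, 0.18, −0.096 and −0.21, and replicate 3 was its only positive array. The means of miR-376b and miR-376a were −0.14 ± 0.33 and −0.078 ± 0.16. The related miR-487b had a mean of −0.20 ± 0.27. Editing was not tested.

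MiR-667 gave −0.23, −0.21, −0.20, −0.27 and 0.050, below 0 on 4 arrays and slightly above on replicate 5. Its mean was −0.17 ± 0.13 (SD, n = 5 arrays), with an interval of −0.30 to −0.039 (limma, adjusted p of 0.198), and it turned to 0.33 under median centring. MiR-668 gave −0.43, −0.28, 0.12, −0.20 and −0.47, with replicate 3 alone above 0. Its mean of −0.25 ± 0.24 (SD, n = 5 arrays) was the lowest of the cluster, with a limma adjusted p of 0.231. MiR-496 gave 0.19, 0.47, 0.42, 0.14 and −0.10, with replicate 5 alone below 0. Its mean was 0.22 ± 0.23 (SD, n = 5 arrays), with a limma adjusted p of 0.248.

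MiR-544, near background, gave −0.14, −0.11, −0.11, −0.054 and −0.13, the only member negative on all 5 arrays. Its mean was −0.11 ± 0.033 (SD, n = 5 arrays), and both of its columns read at background. MiR-412 gave 0.080, 0.12, 0.036, 0.22 and 0.13 and miR-453 gave 0.088, 0.083, 0.29, 0.087 and 0.086. Both were positive on all 5 arrays, and miR-453 was far higher on replicate 3 than on the others. Their means were 0.12 ± 0.070 (SD, n = 5 arrays) and 0.13 ± 0.091 (SD, n = 5 arrays), with adjusted p values of 0.194 and 0.215 in limma. MiR-654-5p, miR-654-3p, miR-299, miR-679 and miR-758 had means of −0.033 ± 0.039, −0.017 ± 0.053, 0.0082 ± 0.028, 0.0035 ± 0.053 and 2.7e-04 ± 0.076, all within 0.1 of 0.

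The other members had no call and are given by their means. MiR-382 stood at 0.19 ± 0.22, miR-377 at −0.21 ± 0.35 and miR-154 at −0.081 ± 0.32. MiR-494 stood at −0.091 ± 0.18, miR-539 at 0.078 ± 0.12 and miR-541 at −0.048 ± 0.12. Each of these 6 SDs was larger than its mean. Replicate 3 was the lowest array for miR-382 and the highest for miR-377, miR-154 and miR-494.

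Several hairpins gave both arms a probe, which let the arms be set against each other on the same array. Of 15 such pairs, 6 were named arms and 9 had a star arm as partner, and the arms had means of the same sign in 7 and of opposite sign in 8. These counts include the pairs of miR-299, miR-654 and miR-666, in which at least 1 arm was not above the mismatch controls. No pair passed: the exact sign-flip permutation test over 5 arrays has a smallest possible two-sided p of 0.0625, and adjusted over 15 pairs the smallest value was 0.234. Both arms of miR-380 differed in one direction on every array. MiR-380-5p had −0.27, 0.049, 0.50, −0.10 and −0.33 and miR-380-3p had 0.0020, 0.52, 0.68, 0.23 and −0.27, so the 5p arm was lower on 5 of 5 arrays. The difference was −0.26 ± 0.15 (SD, n = 5 arrays; exact permutation p of 0.0625).

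The arms of miR-369 differed the other way. MiR-369-5p gave 0.20, 0.44, 0.20, 0.16 and −0.0099 with a mean of 0.20 ± 0.16 and a limma adjusted p of 0.215. MiR-369-3p gave 0.0060, 0.22, −0.81, −0.087 and −0.059 with a mean of −0.15 ± 0.39, which rests on replicate 3, since without that array the mean was 0.020. The 5p arm was higher on 5 of 5 arrays, by 0.34 ± 0.38 (SD, n = 5 arrays; exact permutation p of 0.0625). MiR-154 was below its star arm on 5 of 5 arrays, with a difference of −0.23 ± 0.18 (SD), and miR-666-5p was below miR-666-3p on 5 of 5 arrays, with a difference of −0.14 ± 0.061 (SD). Since miR-666-3p was not above the mismatch controls, the latter difference gives no fold between the arms.

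The other named pairs were mixed. MiR-323-5p gave 0.067, 0.077, 0.23, 0.084 and 0.076, positive on every array with replicate 3 apart from the others. It exceeded the mismatch controls on only 3 arrays in Test and 4 in Cntrl, so its signal lay near them. Its mean was 0.11 ± 0.070 (SD, n = 5 arrays) with a limma adjusted p of 0.215. MiR-323-3p gave 0.12, 0.29, 0.37, 0.15 and −0.096, with replicate 5 alone below 0, and had a mean of 0.17 ± 0.18 and an adjusted p of 0.265. MiR-666-3p, at background, gave 0.031, 0.062, 0.40, 0.11 and 0.10, positive on every array and far higher on replicate 3. Its mean was 0.14 ± 0.15 with a limma adjusted p of 0.269. MiR-666-5p, miR-409-5p and miR-409-3p had means of 0.0063 ± 0.12, 0.017 ± 0.18 and 0.12 ± 0.17.

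**Figure D3:**
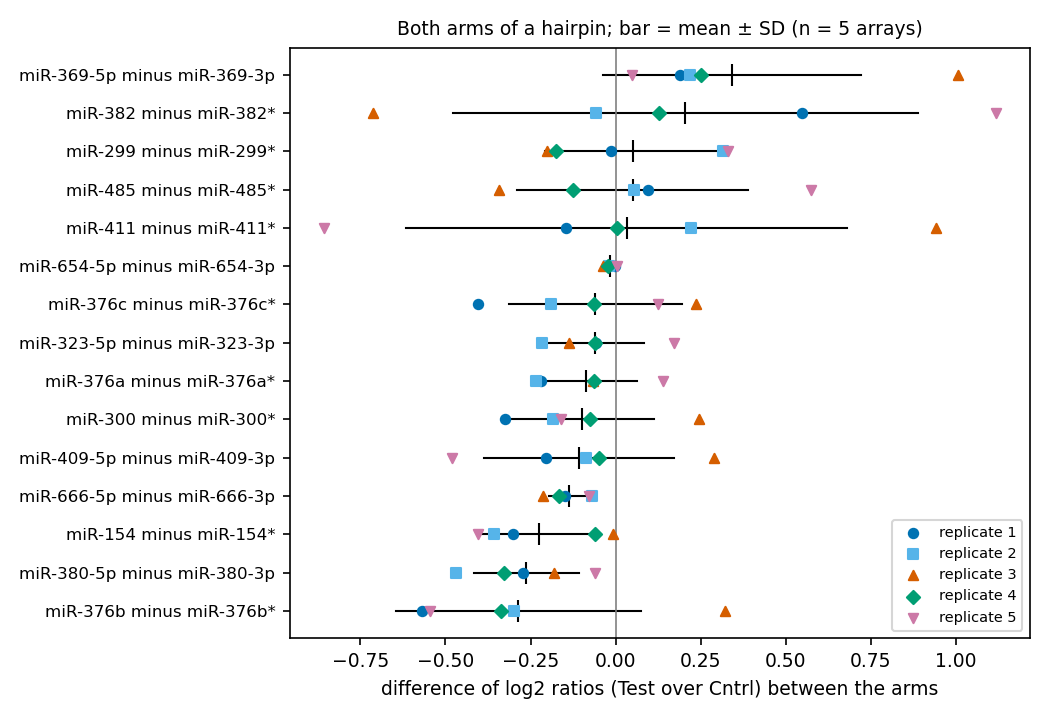
Difference in log2 ratio (Test over Cntrl) between both arms of 15 hairpins, with a point for each of 5 arrays and the mean ± SD. The points of miR-380, miR-154 and miR-666 all lie below 0 and those of miR-369 all above it, while miR-382 and miR-411 spread widely to both sides, with replicates 3 and 5 at opposite ends. MiR-666-3p was not above the mismatch controls.

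The cluster did not sit at the same level on every array. The median of the 41 ratios was −0.053, 0.077, 0.19, −0.027 and −0.090 on replicates 1 to 5, with 15, 28, 30, 19 and 14 members positive. Replicate 3 was thus high and replicates 1 and 5 low, while the median over all miRNAs was −0.0021, −0.0016, −0.022, 0.0075 and −0.016. The shares of all miRNAs tested that were positive were 48.9%, 49.5%, 43.5%, 52.3% and 47.7%. The ratio of the 5S ribosomal RNA spots moved in part with the cluster, at −1.15, −0.30, 0.76, −0.14 and −2.04, and its part in the result was not tested. Replicate 3 was the highest array for 23 of 41 members and the lowest for 8. Replicate 5 was the lowest for 19 and the highest for 8. Counts of highest and lowest arrays were not made over all miRNAs, so they do not set the cluster apart.

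The opposition of replicates 3 and 5 was not restricted to the cluster. Over all miRNAs tested the ratios of these arrays correlated at −0.557, and those of replicates 1 and 3 at −0.303, as a description over probes that share the arrays. Replicate 3 correlated at 0.249 with replicate 2 and at 0.166 with replicate 4. Over the 41 members it correlated at −0.128, 0.281, 0.316 and −0.538 with replicates 1, 2, 4 and 5. Because replicate 3 ran against some arrays of the same dye orientation and with others, results are also given with its sign turned. So turned, the median of the members on replicate 3 was −0.19, with 11 positive. The count at an unadjusted p under 0.05 was then 13 of 41 members, against 19.2% of all miRNAs, and 10 members (24.4%) kept a single sign, against 19.5% of all. None of 41 members passed an adjusted p of 0.05 in limma either way.

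Among the 32 members above the mismatch controls, 20 (62.5%) were positive on replicate 3 and negative on replicate 5, against 33.0% of the 318 miRNAs above the controls. The opposite pattern, negative on 3 and positive on 5, held for 7 members (21.9%), against 40.6% of the 318. Those 7 were miR-134, miR-376c, miR-379, miR-382, miR-409-3p, miR-485 and miR-667. The share of G in the target moved in part with the split: its median was 36.4% in the 7 members and 18.6% in the 20. The ranges overlapped, at 17.4% to 45.5% in the 7 and 4.5% to 28.6% in the 20. Over the 32 members, the correlation of G share with the difference between the arrays was −0.462, and over the 318 miRNAs −0.259. These are descriptions over probes of the same arrays, and the part of base composition was not tested. Some members went against it, such as miR-369-3p, with 14.3% G and a difference of −0.75, and miR-323-5p, with 45.5% G and a difference of 0.16.

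**Figure D4:**
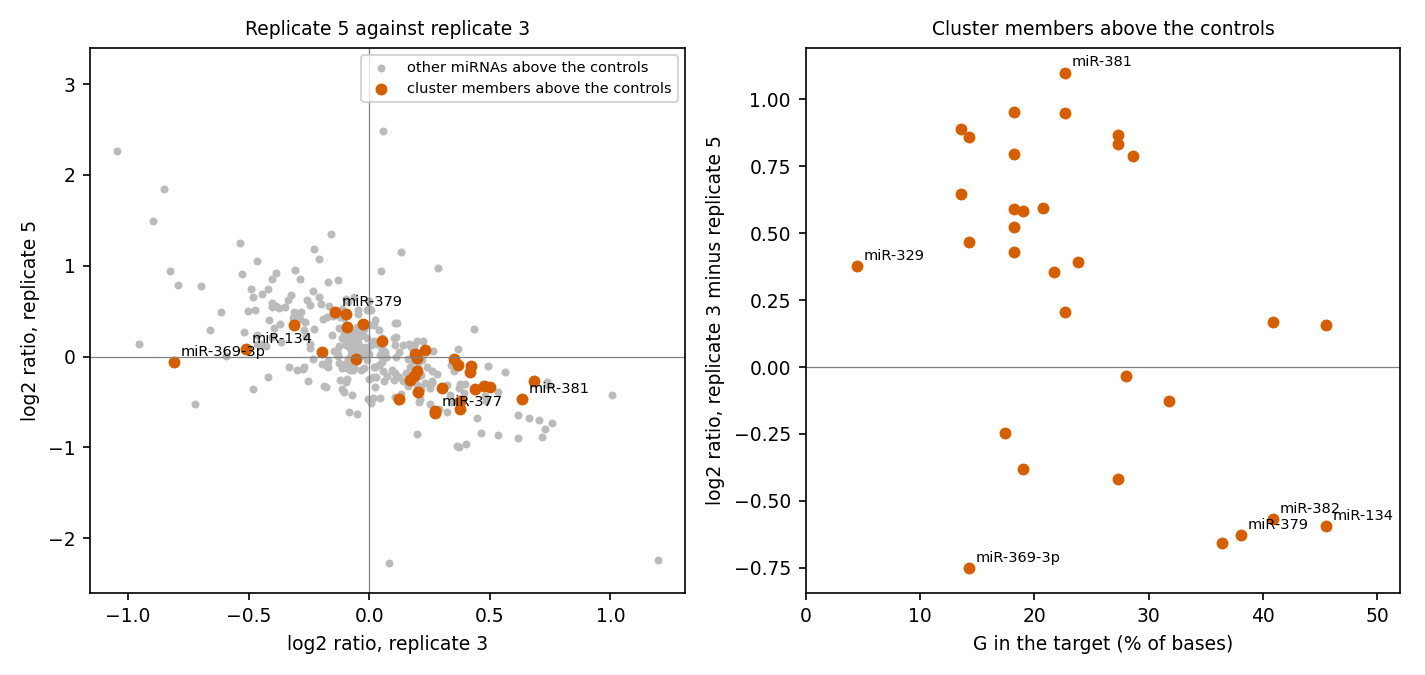
Left, log2 ratio on replicate 5 (vertical) against that on replicate 3 (horizontal) for miRNAs above the mismatch controls, with the 32 cluster members in colour. Right, the difference between these arrays (replicate 3 minus replicate 5, vertical) against the share of G in each member's target (horizontal). Of the 32 members, 20 fall in the lower right quadrant of the left panel, and the difference tends to be lower at a higher share of G in the right panel.

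Position along the cluster gave no uniform pattern. The first 12 hairpins held 12 members with a positive and 3 with a negative mean, hairpins 13 to 24 held 4 and 9, and hairpins 25 to 35 held 7 and 6. The medians were 0.024, −0.078 and 0.017. Counts and medians include members near background: 11 of 15, 10 of 13 and 11 of 13 members were above the mismatch controls. On the 5p arm 9 members were positive and 5 negative, and on the 3p arm 12 and 11. Cluster hairpins also had 9 star arms on the array, 4 positive and 5 negative with a median of −0.0083, and 2 of these had an unadjusted p under 0.05, against 19.4% of all miRNAs tested. The other miRNAs of the Dlk1-Dio3 region outside the cluster, a list in which star arms were allowed, numbered 22. Of the 22, 16 were above the mismatch controls, 8 were positive and 14 negative, and the median was −0.054. Among all 22, 7 (31.8%) had an unadjusted p under 0.05, against 19.4% of all miRNAs tested, and 9 (40.9%) kept a single sign, against 19.7%. Of the 7, 1 was higher, against 8.63% of all, and 6 lower, against 10.7%. The difference between these lists and the cluster was not tested.

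The members' mean ratios depend on how the arrays were normalized. Loess removes a trend of ratio with mean intensity over the array by design. With it, the ratio of a member was nearly unrelated to its intensity, at r = −0.06 with the log2 Test intensity over 41 members. With median centring alone that r was 0.88, and 29 members were positive and 12 negative. The Test intensity is itself a part of the ratio, so these r do not show which normalization is right. In that setting 17 of 41 members (41.5%; 11 higher and 6 lower) passed an adjusted p of 0.05 in limma, against 43.7% of all miRNAs tested, so the share in the cluster stayed near that of the array. The deposited value table, whose method is not stated, gave r = −0.01, with 18 members positive and 23 negative. There 0 of 41 members passed an adjusted p of 0.05, against 0.352% of all miRNAs, with a smallest adjusted p of 0.292 in limma.

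**Figure D5:**
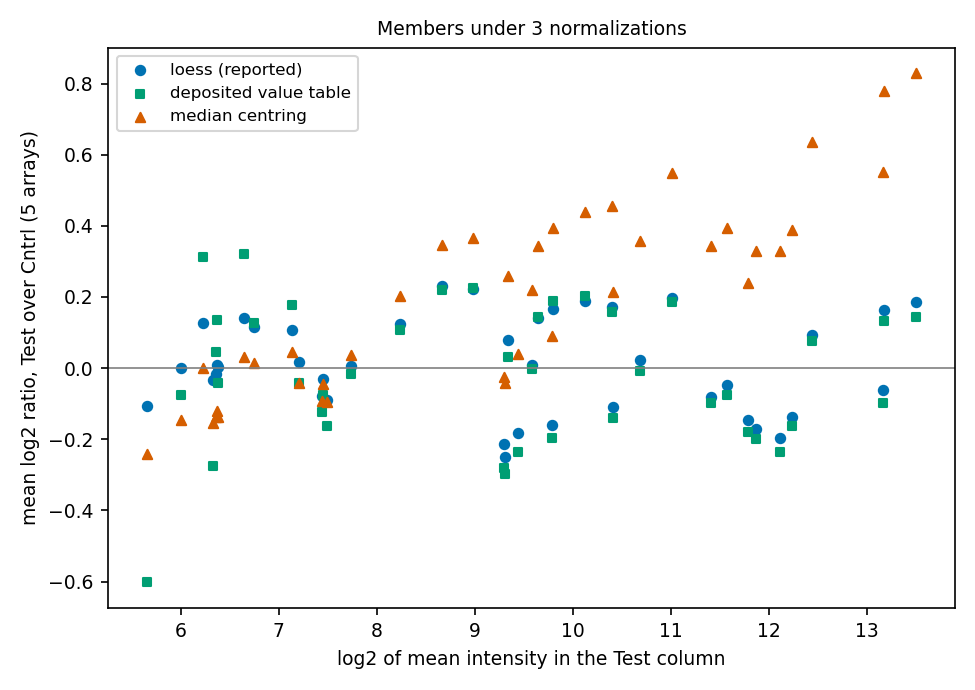
Mean log2 ratio over 5 arrays against the log2 Test intensity for the 41 members under loess, median centring and the deposited value table. Median-centred ratios rise with intensity (r = 0.88), while those of loess (r = −0.06) and of the deposited table (r = −0.01) stay around 0. Loess removes such a trend by design.

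The tissue label was checked against marker miRNAs. All 6 neuronal markers (miR-124, miR-9, miR-128, miR-137, miR-138 and miR-218) were above the mismatch controls in both columns on all arrays, with mean Test intensities of 5743 to 42598 units. None of 6 epithelial and olfactory markers passed the controls on 3 arrays in either column, and miR-144 of red cells, miR-142-3p and miR-223 of leukocytes, miR-211 of choroid plexus and miR-219 of oligodendrocytes did not either. Markers of other cells did pass them: miR-451 and miR-486 of red cells, miR-338-3p of oligodendrocytes, miR-150 of leukocytes, miR-126-3p of endothelium, miR-204 of choroid plexus, miR-1, miR-133a and miR-206 of muscle, and miR-122 of liver. MiR-338-3p, at 0.20, −0.076, 0.66, 0.42 and −0.67 on replicates 1 to 5, was highest on replicate 3 and lowest on replicate 5. The red cell markers ran apart on replicates 3 to 5, with 0.74, 0.58 and −0.32 for miR-451 and −0.35, −0.094 and 0.55 for miR-486. MiR-1 ranged from −1.04 on replicate 3 to 2.26 on replicate 5, and miR-204 from −0.11 to 1.15. The summed signal over the arrays was 1150 to 5197 units in Test and 1979 to 5807 in Cntrl for oligodendrocyte markers, and 3198 to 14170 and 4490 to 9840 for red cell markers. It was 340 to 1416 and 1270 to 2099 for muscle markers. These sums are of intensities before normalization, with no background subtracted, and they include miR-219 and miR-144. Since empty spots read higher in Cntrl, the sums do not show which column held more of a marker. The part of these markers in the ratios of the cluster was not tested. In bulk RNA, fewer cells of a type and less RNA per cell cannot be told apart.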

How the data were processed

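MiRNAs in hippocampus of 5 mice per genotype were measured on 5 two-colour miRNA arrays. Each array holds a pair of mice, named by replicate, so the ratio carries the pair as its block and the p-values cover the spread between pairs. The authors deposited linear spot intensity (mean foreground) per array, not normalized, for 3968 spots, and per the file headers the columns are Cntrl and Test. The background columns hold 0 throughout, so no local background is recorded. The authors also deposited a value table read here as log2 ratios, whose method, log base and direction the sources used here do not give. Its columns had medians of −0.048 to −0.019 and correlated with the loess ratios of Test over Cntrl at 0.773 to 0.926, over 568 miRNAs. It was therefore read in that direction and served as an alternative. For scanner, array maker and spot filters the sources used here name nothing. No column of per-sample values was left unmapped.

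Intensities were corrected with normexp (offset 50) and normalized within arrays by loess, giving the 554 control spots no weight. Log2 values of the 6 replicate spots were averaged. A miRNA entered the fit if either column passed the 95th percentile of 266 empty spots on 3 or more arrays; signal above the 136 mismatch or shifted control spots was recorded in the same way. The mean ratio was tested against 0, two-sided, with limma 3.58.1 (R 4.3.3), with Benjamini-Hochberg adjustment over 568 miRNAs at 0.05. The fit was also run on simulated ratios, drawn independently for each miRNA and array. The measured ratios correlated between arrays, so that run does not give the error rate for these data. Arms of a hairpin were compared by an exact sign-flip permutation test. The number of arrays limits the precision. Columns could not be assigned to genotypes, so every ratio is Test over Cntrl.

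Members and lists were chosen with earlier results of these data known. Every member is named with its mean; the 12 with the smallest p, miR-134, miR-379, miR-410, miR-329, miR-381, miR-485, miR-495 and the miR-376 family are given on every array. Mature sequences and positions come from RefSeq (GRCm38.p6), matched by sequence for 38 of 41 members; for miR-376c, miR-485 and miR-487b the array's target is used. Alternatives covered background correction, normalization, filters, spot summary, variance model, array weights, the pairing, the deposited table and leaving out each array. Turning the sign of replicate 3 was chosen after seeing the data. Figures were drawn with matplotlib 3.10.9.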

Additional observations from a re-analysis of the deposited data

Results flagged for a closer look

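Ratios of the 41 members and the cluster median were examined over the 5 arrays. In 5 of these 42 cases (11.9%), 1 array stood apart from the others. The same held for 6.51% of all 568 miRNAs, and chance alone gives about 5%. The members share these arrays, and whether the cluster differs from the array in this was not tested. Standing apart means a gap to the nearest of the others of more than 0.71 of the whole range. Replicate 3 was that array for 3 members, all of them high: miR-323-5p at 0.23, miR-453 at 0.29 and miR-666-3p at 0.40 on the log2 scale. MiR-453 and miR-666-3p were not above the mismatch controls. Replicate 5 was that array for miR-485 at 0.35 and miR-667 at 0.050, the only positive value of each. The cause was not tested.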

How the results depend on the processing

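The members past an unadjusted p of 0.05 numbered 8 as reported, and 4 with subtraction of the empty spots, 20 with median centring, 31 without normalization, 5 with loess restricted to probes above the mismatch controls, 4 of the 32 kept by a filter on those controls, 5 with an intensity trend and robust variances, 15 with array weights, and 13 with replicate 3 turned (chosen after seeing the data). Leaving out each array gave 3 to 15. The array is the pair: with columns fitted as separate samples and no replicate block, the count was 4. That setting also replaced loess with quantile normalization over all columns, so the parts of pairing and normalization cannot be told apart in it. The shares of all miRNAs moved too, from 19.4% as reported to 11.8% with subtraction of the empty spots, 51.9% with median centring, 78.5% without normalization, 11.4% with restricted loess, 17.3% with the filter, 19.7% with the trend, 29.9% with array weights, 19.2% with replicate 3 turned, 8.98% with no replicate block and 10.2% to 24.6% without single arrays. Members past an adjusted p of 0.05 in limma numbered 0 as reported, 17 with median centring, 30 without normalization and 1 with array weights (miR-667, −0.22, adjusted p of 0.044), and 0 in the other settings run, leaving out each array included. The shares of all miRNAs past that threshold were 43.7%, 77.8% and 3.7%. The median ratio of 0.0063 became 0.21 with median centring and −0.51 without normalization, where the median of all miRNAs was −0.77; leaving out each array gave −0.028 to 0.044. The cause was not tested.

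Of 805 single results, 690 kept sign and call and 89 changed sign. The threshold was passed by 48, of which 26 kept and 22 changed their sign. Signs held under every setting other than leaving out arrays or turning replicate 3 for miR-376a, miR-377, miR-379, miR-380-5p, miR-382, miR-494, miR-544, miR-654-5p and miR-668. The sign turned as follows. With subtraction of the empty spots, miR-381 was −0.014 and miR-758 −0.070. Without background correction, miR-541 was 0.013 and miR-679 −0.0014. Median centring gave miR-134 0.039, miR-154 0.34, miR-299 −0.12, miR-300 0.091, miR-369-3p 0.24, miR-376b 0.39, miR-409-5p −0.043, miR-485 0.21, miR-487b 0.33, miR-495 0.55, miR-541 0.40, miR-667 0.33, miR-679 −0.14 and miR-758 −0.15. No normalization gave miR-299 −0.85, miR-323-3p −0.33, miR-323-5p −0.68, miR-329 −0.090, miR-369-5p −0.18, miR-376c −0.29, miR-380-3p −0.38, miR-381 −0.51, miR-409-3p −0.52, miR-409-5p −0.77, miR-410 −0.27, miR-411 −0.37, miR-412 −0.71, miR-453 −0.72, miR-496 −0.36, miR-539 −0.47, miR-543 −0.38, miR-666-3p −0.70, miR-666-5p −0.69, miR-679 −0.86 and miR-758 −0.87. Loess restricted to such probes gave miR-299 −0.034, miR-666-5p −0.0010, miR-679 −0.039 and miR-758 −0.028. The median of spots gave miR-409-5p −0.011, miR-666-5p −0.0011, miR-679 −0.020 and miR-758 −0.0077. Array weights gave miR-381 −0.026, miR-666-5p −0.038 and miR-679 −0.012. The fit with no replicate block, which used quantile normalization in place of loess, gave miR-666-5p −0.0050, miR-679 −5.6e-05 and miR-758 −0.012. The deposited table gave miR-381 −0.0026, miR-409-5p −0.042, miR-411 −0.0087, miR-654-3p 0.044, miR-666-5p −0.018, miR-679 −0.041 and miR-758 −0.077. Replicate 3 turned gave miR-134 0.022, miR-329 −0.047, miR-369-3p 0.18, miR-380-3p −0.041, miR-381 −0.25, miR-409-5p −0.061, miR-411 −0.15, miR-485 0.017, miR-543 −0.049, miR-666-3p −0.020, miR-666-5p −0.070 and miR-758 −0.023.

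Leaving out single arrays gave miR-380-5p −0.16 to 0.044, miR-679 −0.012 to 0.023, miR-381 −0.15 to 0.13, miR-409-5p −0.028 to 0.065, miR-758 −0.023 to 0.025, miR-369-3p −0.24 to 0.020, miR-411 −0.080 to 0.12, miR-666-5p −0.040 to 0.037, miR-299 −0.0037 to 0.013, miR-154 −0.17 to 0.048, miR-495 −0.15 to 0.0084 and miR-654-3p −0.034 to 0.0015. Signal over background limits the 9 members near the controls, whose ratios the offset of 50 also draws toward 0. Loess assumes that most miRNAs of like intensity do not differ.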

Other observations

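MiR-369-3p had the highest SD over arrays within either column among the 32 members above the mismatch controls. After quantile normalization its log2 level had an SD of 1.04 in Test and 0.72 in Cntrl over 5 arrays, beside medians of 0.23 and 0.17 over the 32 members above the mismatch controls. Its intensity was 5575, 8973, 1034, 817 and 1307 units in Test and 5835, 7502, 2880, 1319 and 2751 units in Cntrl on replicates 1 to 5. Both columns were high on replicates 1 and 2 and low on the other arrays, so array and mouse cannot be told apart here. Its target is 4 edits from that of miR-154*.

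Within columns, the 32 members lay at medians of −0.10, 0.14, 0.14, −2.0e-04 and −0.092 from their own means over arrays in Test, on replicates 1 to 5, with 10, 20, 24, 16 and 8 above. In Cntrl the medians were 0.052, 0.0060, −0.14, 0.030 and 0.030, with 20, 16, 7, 19 and 18 above. Over all 318 miRNAs above the controls the medians ran from −0.035 to 0.045 in Test and from −0.0036 to 0.021 in Cntrl. The cause was not tested.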
